A study of Mus musculus with 12 samples.

Results

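The receptors of the BMP, activin and TGF-beta families are described here through 10 mouse genes, chosen by family and matched by symbol to Ensembl gene identifiers, out of 54532 genes counted by RNAseq. Of these, 6 encode type I receptors (*Acvr1*, *Bmpr1a*, *Bmpr1b*, *Acvrl1*, *Acvr1b* and *Tgfbr1*) and 4 encode type II receptors (*Bmpr2*, *Acvr2a*, *Acvr2b* and *Tgfbr2*). RNA came from progenitors of the brainstem of C57BL/6 mice carrying Nestin TVA and floxed p53, taken at postnatal day 3 to 5 and grown in serum-free medium with EGF and FGF2. The 12 samples made 4 groups of 3, in which RCAS vectors delivered either *ACVR1* WT or *ACVR1* R206H, alone or together with the histone allele H3.1K27M. The delivered *ACVR1* is human, every group carried an *ACVR1* vector, and no group without one was analysed here. RCAS viruses enter only cells with the Tv-a receptor, which is driven by the nestin promoter, so that a culture can hold infected and uninfected cells. The labels name no Cre, and the floxed p53 is shared by all 4 groups.

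A BMP, activin or TGF-beta ligand brings type II and type I receptors together on the cell surface. The type II receptor, a constitutively active serine/threonine kinase, phosphorylates the type I receptor in its GS box, a stretch rich in glycine and serine beside the kinase domain, and the type I receptor then phosphorylates SMAD proteins. ACVR1, BMPR1A, BMPR1B and ACVRL1 signal to SMAD1, SMAD5 and SMAD9, whereas ACVR1B and TGFBR1 signal to SMAD2 and SMAD3. BMPR2 serves BMPs, ACVR2A and ACVR2B serve activins and BMPs, and TGFBR2 serves TGF-beta. In the nervous system BMP signaling is known for its part in dorsal patterning and in astrocyte differentiation. The R206H allele lies in the GS segment of ACVR1 and is the common allele of fibrodysplasia ossificans progressiva, in which the receptor also answers activin A.

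The coding sequence of the endogenous mouse type I receptor genes at the site of the delivered allele is shown because reads counted on mouse *Acvr1* cannot be divided between the endogenous gene and the human vector. Each stretch has 57 bases, written 5′ to 3′ on the coding strand of GENCODE M21 transcripts (GRCm38), and capitals mark the codon of the residue that R206H changes in *Acvr1* and the codons aligned to it.
Acvr1: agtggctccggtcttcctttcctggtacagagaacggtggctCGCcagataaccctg
Bmpr1a: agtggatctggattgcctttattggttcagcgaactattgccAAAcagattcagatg
Bmpr1b: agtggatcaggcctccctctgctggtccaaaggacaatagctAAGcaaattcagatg
Acvrl1: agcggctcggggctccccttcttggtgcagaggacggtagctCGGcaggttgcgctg
Acvr1b: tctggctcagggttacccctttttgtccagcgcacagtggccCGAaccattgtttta
Tgfbr1: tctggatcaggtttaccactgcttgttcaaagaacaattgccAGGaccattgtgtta

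In the mouse reference this codon stands for arginine in *Acvr1*, *Acvrl1*, *Acvr1b* and *Tgfbr1* and for lysine in *Bmpr1a* and *Bmpr1b*. The *Acvr1* stretch is on the minus strand at chr2:58474186-58474242, within exon 6 of 11. Over the stretch, *Acvrl1* shared 75.4% of its bases with *Acvr1*, *Bmpr1a* and *Bmpr1b* 63.2% each, *Acvr1b* 54.4% and *Tgfbr1* 52.6%. In *Bmpr1a* the stretch runs across the junction of exons 8 and 9, with the marked codon at chr14:34425118-34425120 on the minus strand. In *Bmpr1b* it runs across exons 6 and 7, with the marked codon at chr3:141857576-141857578 on the minus strand. The members were therefore distinct in sequence where the allele lies, and reads that matched several places were left out by the counting.

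Total counts were 19315020 to 26456257 a sample, and levels are given as CPM, read counts scaled to a common library size by the TMM method over the 12 samples. Levels are compared between genes only as CPM per kb of exon. The *ACVR1* WT group was the most variable, with a biological coefficient of variation of 0.275 against 0.0453 to 0.0594 in the other 3 groups. Its replicate 1 stood apart from replicates 2 and 3, so that receptor results which rest on this group are also given without that sample. All 8 neural progenitor markers were detected, at a summed 4148 to 5891 CPM, and microglial, endothelial and pericyte or fibroblast markers summed to at most 41.8, 17.9 and 33.2 CPM in any sample. In bulk RNA a lower level cannot be told apart as fewer cells of a type or as less RNA per cell. The labels number the samples as replicates without naming separate cultures or litters, so that p values measure the spread between these samples.

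*Acvr1* (ENSMUSG00000026836, chr2:58388644-58567157, minus strand) encodes the type I receptor whose human form was delivered, and its counts rose across the groups. It had 53.1, 46.1 and 52.3 CPM in the 3 *ACVR1* WT samples and 114, 82.3 and 86.1 CPM with *ACVR1* R206H. With H3.1K27M it had 172, 163 and 368 CPM for *ACVR1* WT and 1000.5, 548 and 1056 CPM for *ACVR1* R206H. The groups were separated completely in this order, and within the groups with H3.1K27M the highest sample was 2.26 and 1.93 times the lowest. The group means were 50.5 ± 3.83, 94.2 ± 17.5, 234 ± 116 and 868 ± 279 CPM (SD, n = 3 each). In raw counts the range was 894 to 28270. Reads of the human vector that align to the mouse gene would be counted here, and endogenous and delivered transcripts cannot be told apart in these gene counts, so that no level of the endogenous gene is given.

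*Acvr1* was 9.38-fold higher with H3.1K27M than without it among *ACVR1* R206H samples (log2 fold change 3.23, standard error 0.21, adjusted p = 1.27e-07 by edgeR's quasi-likelihood F test, Benjamini-Hochberg method). Among *ACVR1* WT samples it was 4.60-fold higher with H3.1K27M (log2 fold change 2.20, standard error 0.33, adjusted p = 0.00745), and by 2.24 on the log2 scale without *ACVR1* WT replicate 1 (adjusted p = 0.00108). Between *ACVR1* R206H and *ACVR1* WT it was 3.77-fold higher on the H3.1K27M background (log2 fold change 1.91, standard error 0.28, adjusted p = 0.00045). Without H3.1K27M it was 1.86-fold higher (log2 0.89, standard error 0.14), and the adjusted p was 0.94 by edgeR but 0.000254 by DESeq2. It ranked 9 by p among the 15066 genes tested there, and without *ACVR1* WT replicate 1 its adjusted p was 0.00502. The *ACVR1* R206H effect was larger with H3.1K27M by 1.03 on the log2 scale (95% interval 0.05 to 2.01), which did not pass (adjusted p = 0.64), nor did the 0.99 without *ACVR1* WT replicate 1 (adjusted p = 0.117). On the H3.1K27M background the groups compared by allele thus also differed in the count of *Acvr1* itself.

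As a share of the summed level of the 6 type I receptor genes per kb of exon, *Acvr1* had 8.91% to 11.8% with *ACVR1* WT and 13.8% to 17.8% with *ACVR1* R206H. With H3.1K27M its share was 32.2% to 50.8% for *ACVR1* WT and 50.4% to 64.1% for *ACVR1* R206H. The other 5 type I genes together had 96.7 ± 13.9 CPM per kb with *ACVR1* WT, 106 ± 3.28 with *ACVR1* R206H, 71.7 ± 1.75 with *ACVR1* WT and H3.1K27M, and 118 ± 5.60 with *ACVR1* R206H and H3.1K27M (SD, n = 3 each). The shares assume reads along all exons of a gene, whereas vector transcripts need not carry the untranslated exons.

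**Figure D1:**
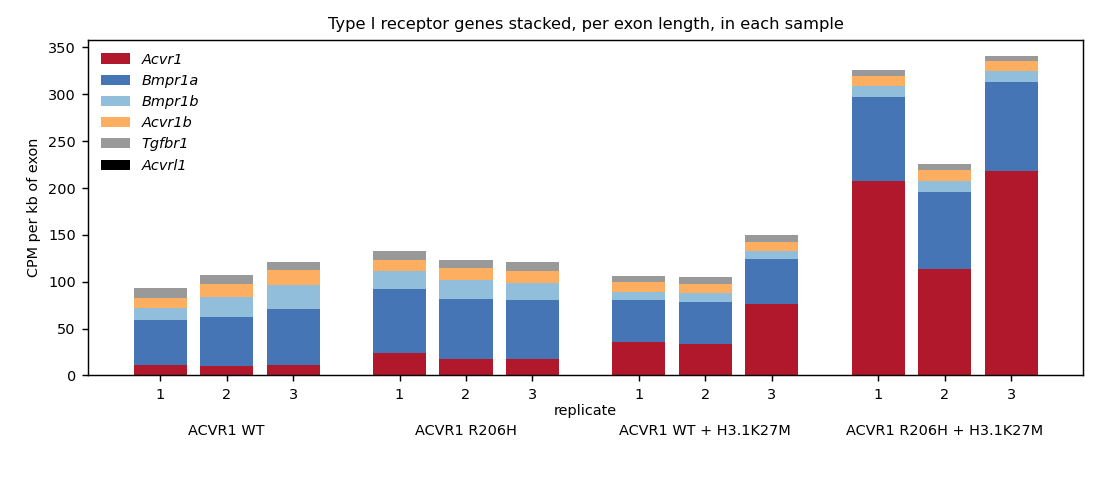
Stacked bars give the level of each type I receptor gene in CPM per kb of exon in each of the 12 samples, ordered by group and replicate. *Acvr1* (red) takes 8.91% to 11.8% of the stack with *ACVR1* WT and 50.4% to 64.1% with *ACVR1* R206H and H3.1K27M, and *Acvrl1* is too low to be seen.

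The levels of *Acvr1* and of *Id1*, a direct target of BMP receptors, are given side by side. In the *ACVR1* WT samples with H3.1K27M, *Acvr1* had 172, 163 and 368 CPM and *Id1* 13.8, 12.5 and 14.0 CPM in replicates 1, 2 and 3. In the *ACVR1* R206H samples with H3.1K27M, *Acvr1* had 1000.5, 548 and 1056 CPM and *Id1* 103, 94.1 and 118 CPM. The replicates stood in the same order for both genes in each of these groups. In the groups without H3.1K27M they did not, with *Id1* at 12.5, 11.9 and 21.8 CPM for *ACVR1* WT and 40.5, 34.4 and 32.5 CPM for *ACVR1* R206H. The *ACVR1* WT sample with 368 CPM of *Acvr1* exceeded the 3 *ACVR1* R206H samples without H3.1K27M in *Acvr1*, whereas its *Id1* level of 14.0 CPM was under their range of 32.5 to 40.5 CPM. With 3 samples a group, no relation between the 2 genes was tested.

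*Bmpr1a* (ENSMUSG00000021796, chr14:34410734-34503341, minus strand), the type I receptor that binds BMP2 and BMP4, had the highest level per kb of exon of the 10 genes without H3.1K27M. It had 303, 335 and 381 CPM with *ACVR1* WT and 437, 409 and 401 CPM with *ACVR1* R206H. With H3.1K27M it had 284, 286 and 304 CPM for *ACVR1* WT and 573, 524 and 601 CPM for *ACVR1* R206H. All *ACVR1* R206H samples lay above all *ACVR1* WT samples in both backgrounds, and the 3 samples with both mutations were the highest of the 12. On the H3.1K27M background *Bmpr1a* was 1.98-fold higher with *ACVR1* R206H (log2 fold change 0.99, standard error 0.05, adjusted p = 4.63e-08), rank 19 by p among 15672 genes. Without H3.1K27M the log2 fold change was 0.28 (95% interval 0.04 to 0.53, adjusted p = 0.94, unadjusted p = 0.0302), and 0.21 without *ACVR1* WT replicate 1 (adjusted p = 0.0888).

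H3.1K27M went with a higher *Bmpr1a* level among *ACVR1* R206H samples, 1.39-fold (log2 fold change 0.47, standard error 0.05, adjusted p = 1.11e-05). Among *ACVR1* WT samples its log2 fold change was -0.23 (95% interval -0.47 to 0.01, adjusted p = 0.138), and -0.31 without *ACVR1* WT replicate 1, where it passed (adjusted p = 0.00723). The difference between those changes, the R206H by H3.1K27M interaction, was 0.71 (standard error 0.12), rank 18 by p among 15445 genes, with an adjusted p of 0.0746 by edgeR and 1.75e-05 by DESeq2. Without *ACVR1* WT replicate 1 the interaction was 0.79 with an adjusted p of 9.84e-05. An antisense gene that shares exons with *Bmpr1a* had a mean count of 3, against at least 5992 for *Bmpr1a*.

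*Bmpr1b* (ENSMUSG00000052430, chr3:141837136-142169425, minus strand), a type I receptor for BMPs and GDFs, was lower in the samples with H3.1K27M. It had 79.0, 128 and 151 CPM with *ACVR1* WT and 112, 118 and 105 CPM with *ACVR1* R206H. With H3.1K27M it had 50.4, 55.2 and 51.4 CPM for *ACVR1* WT and 65.8, 68.3 and 67.8 CPM for *ACVR1* R206H. No sample with H3.1K27M reached any sample without it, and the *ACVR1* WT group spanned a range of 1.91 times. *Bmpr1b* was 1.63-fold lower with H3.1K27M among *ACVR1* R206H samples (log2 fold change -0.70, standard error 0.05, adjusted p = 3.02e-07). Among *ACVR1* WT samples it was 2.30-fold lower (log2 fold change -1.20, standard error 0.23, adjusted p = 0.0146). That call was lost without *ACVR1* WT replicate 2 (adjusted p = 0.0619) or without any 1 of the 3 *ACVR1* WT samples with H3.1K27M (adjusted p = 0.0636 to 0.0738), while without *ACVR1* WT replicate 1 the log2 fold change was -1.43 (adjusted p = 6.44e-06).

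On the H3.1K27M background *Bmpr1b* was 1.32-fold higher with *ACVR1* R206H than with *ACVR1* WT (log2 fold change 0.40, standard error 0.05, adjusted p = 0.000141), a call lost with all 12 samples in a single fit (adjusted p = 0.334). Without H3.1K27M its log2 fold change was -0.10 (95% interval -0.64 to 0.44), which became -0.32 without *ACVR1* WT replicate 1 (adjusted p = 0.0254) and 0.10 without replicate 3. The interaction was 0.50 (95% interval -0.05 to 1.04, adjusted p = 0.68), and 0.73 without *ACVR1* WT replicate 1 (adjusted p = 0.000213). *Bmpr1a* and *Bmpr1b* thus both had higher levels with *ACVR1* R206H on the H3.1K27M background, while with H3.1K27M itself *Bmpr1b* was lower in both *ACVR1* backgrounds.

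*Acvrl1* (ENSMUSG00000000530, chr15:101128522-101145336, plus strand), the type I receptor known from endothelial cells, had counts from 0 to 14 in the 12 samples. With *ACVR1* R206H it had 1, 4 and 0 counts, and the count of 0 allows a level of up to 0.145 CPM, counting error only. Its highest sample, at 0.665 CPM, was *ACVR1* R206H with H3.1K27M replicate 1. It was below the mean normalized count of 10 that a test required and was tested in none of the comparisons, which left 9 of the 10 receptor genes.

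**Figure D2:**
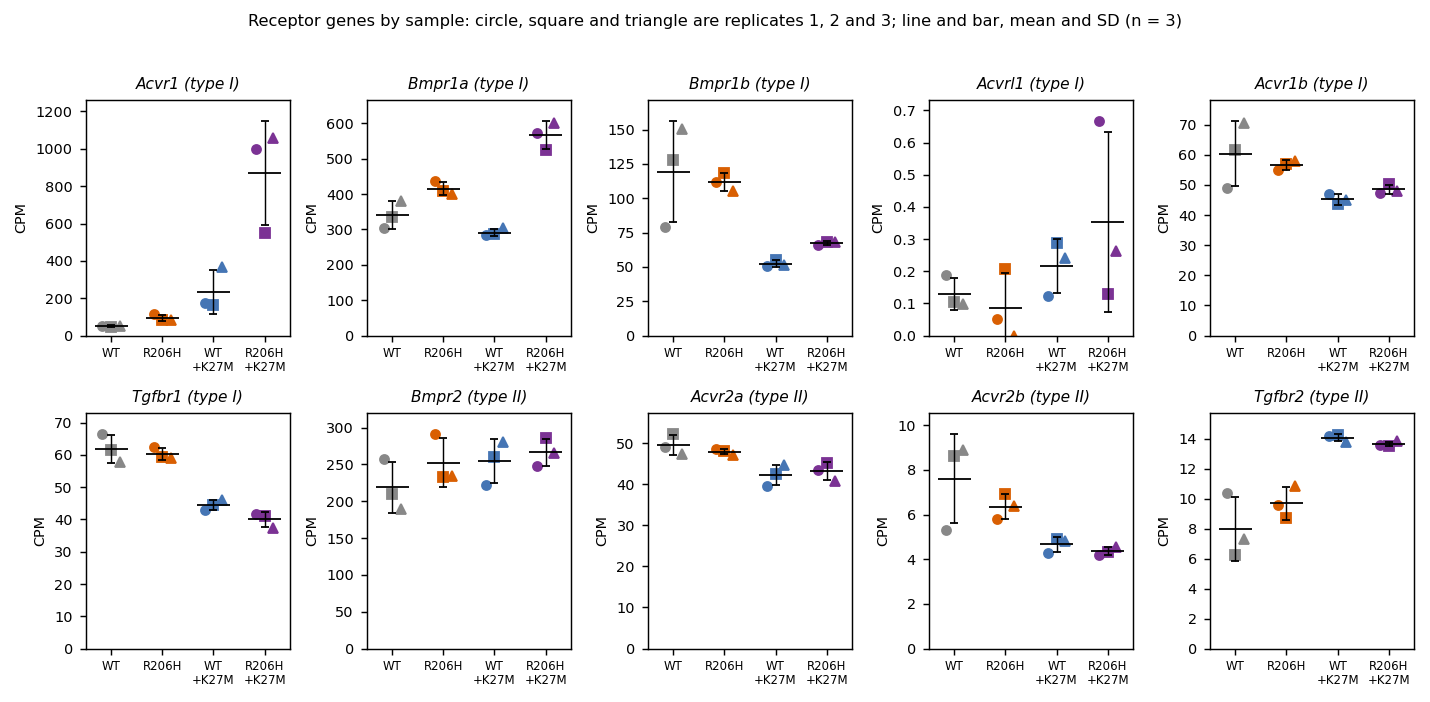
CPM of each receptor gene in the 12 samples by group, on linear axes that start at 0, with a symbol for each replicate and the mean and SD (n = 3) in black. *Acvr1* reaches 868 ± 279 CPM and *Bmpr1a* 566 ± 39.4 CPM with *ACVR1* R206H and H3.1K27M, while *Acvrl1* stays under 1 CPM in each sample.

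*Acvr1b* (ENSMUSG00000000532, chr15:101174067-101213684, plus strand), the activin type I receptor, had 49.1, 61.5 and 70.4 CPM with *ACVR1* WT and 54.9, 57.0 and 58.1 CPM with *ACVR1* R206H. With H3.1K27M it had 47.0, 43.5 and 45.0 CPM for *ACVR1* WT and 47.5, 50.3 and 48.0 CPM for *ACVR1* R206H. The samples with H3.1K27M were lower, without overlap within either *ACVR1* background. Among *ACVR1* R206H samples *Acvr1b* was 1.14-fold lower with H3.1K27M (log2 fold change -0.19, standard error 0.05, adjusted p = 0.00769), a call lost with all 12 samples in a single fit (adjusted p = 0.151). Among *ACVR1* WT samples the change was -0.43 on the log2 scale (standard error 0.13, adjusted p = 0.0619), and -0.56 without *ACVR1* WT replicate 1 (adjusted p = 0.000457). The *ACVR1* R206H effect without H3.1K27M was -0.10 (95% interval -0.42 to 0.22), and -0.22 without *ACVR1* WT replicate 1 (adjusted p = 0.0655).

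*Tgfbr1* (ENSMUSG00000007613, chr4:47353222-47414931, plus strand), the TGF-beta type I receptor, was lower in all 6 samples with H3.1K27M than in the 6 without it. It had 66.4, 61.5 and 57.8 CPM with *ACVR1* WT and 62.3, 59.4 and 58.9 CPM with *ACVR1* R206H. With H3.1K27M it had 42.8, 44.4 and 46.0 CPM for *ACVR1* WT and 41.6, 41.1 and 37.5 CPM for *ACVR1* R206H. *Tgfbr1* was 1.47-fold lower with H3.1K27M among *ACVR1* R206H samples (log2 fold change -0.56, standard error 0.06, adjusted p = 5.64e-06) and 1.40-fold lower among *ACVR1* WT samples (log2 fold change -0.49, standard error 0.08, adjusted p = 0.00897). The latter adjusted p was 0.0541 without replicate 2 of *ACVR1* WT with H3.1K27M, and 0.000796 without *ACVR1* WT replicate 1, where the log2 fold change was -0.44. The *ACVR1* R206H effect without H3.1K27M was -0.05 (95% interval -0.23 to 0.13), and 0.01 without *ACVR1* WT replicate 1. The interaction was -0.07 (95% interval -0.27 to 0.14), and -0.12 without that sample (adjusted p = 0.338).

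*Tgfbr2* (ENSMUSG00000032440, chr9:116084293-116175360, minus strand), the type II receptor that binds TGF-beta, moved the other way from *Tgfbr1*. It had 10.4, 6.24 and 7.28 CPM with *ACVR1* WT and 9.56, 8.68 and 10.8 CPM with *ACVR1* R206H, against 14.2, 14.2 and 13.8 CPM with *ACVR1* WT and H3.1K27M and 13.6, 13.5 and 13.8 CPM with both mutations. All 6 samples with H3.1K27M were higher than the 6 without it, on raw counts of 121 to 370. With H3.1K27M *Tgfbr2* was 1.43-fold higher among *ACVR1* R206H samples (log2 fold change 0.52, standard error 0.09, adjusted p = 0.000483). Among *ACVR1* WT samples it was 1.75-fold higher (log2 fold change 0.81, standard error 0.20, adjusted p = 0.0316), a call lost without *ACVR1* WT replicate 2 or 3 or without any sample of *ACVR1* WT with H3.1K27M (adjusted p = 0.0708 to 0.114), while without *ACVR1* WT replicate 1 the log2 fold change was 1.04 (adjusted p = 0.000165). The *ACVR1* R206H effect was close to 0 with H3.1K27M (log2 fold change -0.01, 95% interval -0.16 to 0.14), and without H3.1K27M it was 0.28 (95% interval -0.24 to 0.79), or 0.52 without *ACVR1* WT replicate 1 (adjusted p = 0.0424).

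Microglia, which are known to express TGF-beta receptors, had lower markers in the same samples. The 10 microglial markers summed to 6.54 to 41.8 CPM with *ACVR1* WT and 11.1 to 15.8 CPM with *ACVR1* R206H, and to 1.58 to 1.96 and 2.27 to 3.40 CPM in the corresponding groups with H3.1K27M. Of the 7 tested among *ACVR1* WT samples, 6 were lower with H3.1K27M, where 10.4% of all genes were. Of the 5 tested among *ACVR1* R206H samples 4 were lower, where 27.4% of all genes were, and *P2ry12* was higher (log2 fold change 1.01, adjusted p = 0.005). *P2ry12* was also higher with *ACVR1* R206H on the H3.1K27M background (log2 fold change 0.99, adjusted p = 0.0111), at up to 2.50 CPM, and no marker of the 10 was at 0 throughout a group. Pericyte and fibroblast markers, 8 genes, summed to 9.61 to 15.8 CPM without H3.1K27M and 17.2 to 33.2 CPM with it. Neuronal markers, 7 genes, summed to 1160 to 1683 CPM without H3.1K27M and 619 to 787 CPM with it. This sum was mostly *Map2* (group means of 595 to 1357 CPM), and among *ACVR1* R206H samples 4 of the 7 were higher with H3.1K27M and 2 lower, with a median log2 fold change of 0.46. Oligodendrocyte lineage markers, 8 genes, summed to 2363 to 3270 CPM without H3.1K27M and 3481 to 4284 CPM with it. Astrocyte markers, 6 genes, summed to 3191 to 12671 CPM within the *ACVR1* WT group and 4024 to 6309 CPM in the other samples. The part of these cell types in the H3.1K27M results for *Tgfbr1*, *Tgfbr2* and the other receptors was not tested.

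*Bmpr2* (ENSMUSG00000067336, chr1:59763400-59879014, plus strand), the BMP type II receptor, had the highest level per kb of exon of the 4 type II genes in each group. It had 257, 210 and 189 CPM with *ACVR1* WT, 291, 233 and 234 CPM with *ACVR1* R206H, 222, 261 and 281 CPM with *ACVR1* WT and H3.1K27M, and 249, 285 and 266 CPM with both mutations. The groups overlapped in every comparison. *Bmpr2* passed none of the 4 comparisons, with log2 fold changes from 0.10 to 0.21. The 95% interval of the *ACVR1* R206H effect was -0.07 to 0.27 with H3.1K27M and -0.15 to 0.55 without it. The interval of the H3.1K27M effect was -0.07 to 0.29 with *ACVR1* R206H and -0.14 to 0.55 with *ACVR1* WT, and without *ACVR1* WT replicate 1 the last log2 fold change was 0.34 (adjusted p = 0.0232). Without that sample the *ACVR1* R206H effect in the absence of H3.1K27M was 0.33 (adjusted p = 0.0581).

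*Acvr2a* (ENSMUSG00000052155, chr2:48814109-48903269, plus strand), a type II receptor for activins and BMPs, varied least among the samples. Its highest sample, at 52.2 CPM, was 1.32 times its lowest, at 39.6 CPM. It had 49.0, 52.2 and 47.3 CPM with *ACVR1* WT, 48.5, 48.1 and 47.2 CPM with *ACVR1* R206H, 39.6, 42.5 and 44.6 CPM with *ACVR1* WT and H3.1K27M, and 43.5, 45.2 and 40.9 CPM with both mutations. The samples with H3.1K27M lay below those without it, with log2 fold changes of -0.24 among *ACVR1* WT samples (adjusted p = 0.0725) and -0.12 among *ACVR1* R206H samples (adjusted p = 0.081), the former becoming -0.25 and passing without *ACVR1* WT replicate 1 (adjusted p = 0.0293). The *ACVR1* R206H effect was -0.05 without H3.1K27M (95% interval -0.21 to 0.11), or -0.06 without *ACVR1* WT replicate 1 (adjusted p = 0.597), and 0.06 with H3.1K27M (95% interval -0.07 to 0.20). *Acvr2a* shares exons with *Orc4* on the opposite strand, which had a mean count of 1180, and the counting did not use strand and dropped ambiguous reads, so that its value is uncertain.

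*Acvr2b* (ENSMUSG00000061393, chr9:119402118-119434995, plus strand), the second activin type II receptor, had 5.32, 8.62 and 8.88 CPM with *ACVR1* WT and 5.78, 6.91 and 6.37 CPM with *ACVR1* R206H. With H3.1K27M it had 4.27, 4.92 and 4.80 CPM for *ACVR1* WT and 4.18, 4.33 and 4.56 CPM for *ACVR1* R206H. Every sample with H3.1K27M was lower than every sample without it. *Acvr2b* was 1.42-fold lower with H3.1K27M among *ACVR1* R206H samples (log2 fold change -0.51, standard error 0.12, adjusted p = 0.00357). Among *ACVR1* WT samples the log2 fold change was -0.71 (95% interval -1.25 to -0.18), with an adjusted p of 0.063 by edgeR and 0.0272 by DESeq2, and -0.92 without *ACVR1* WT replicate 1 (adjusted p = 0.000613). The *ACVR1* R206H effect was -0.26 without H3.1K27M (95% interval -0.80 to 0.27), or -0.47 without *ACVR1* WT replicate 1 (adjusted p = 0.0395), and -0.06 with H3.1K27M (95% interval -0.33 to 0.20).

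Counted over the receptor genes, 0 of the 9 tested passed between *ACVR1* R206H and *ACVR1* WT without H3.1K27M in edgeR's test, where 0.0% of all genes tested passed. There, 2 had an unadjusted p under 0.05, *Acvr1* and *Bmpr1a*, and DESeq2 called 1, *Acvr1*, against 0.173% of all genes. These 2 genes were also those whose groups did not overlap, against 9.21% of all genes. Without *ACVR1* WT replicate 1, 4 of the 9 passed (*Acvr1*, *Bmpr1b*, *Acvr2b* and *Tgfbr2*), where 23.1% of all genes did. On the H3.1K27M background, 3 of the 9 rose with *ACVR1* R206H (*Acvr1*, *Bmpr1a* and *Bmpr1b*) and 0 fell, where 20.3% of all genes passed, 11.4% higher and 8.95% lower. The groups did not overlap for 5 of the 9, against 37.2% of all genes. All 3 are BMP type I receptors, while *Acvr1b* (log2 fold change 0.14, adjusted p = 0.0872) and *Tgfbr1* (log2 fold change -0.12, adjusted p = 0.173) did not pass. The count of *Acvr1* may include reads of the delivered vector, and the *Bmpr1b* call was lost with all 12 samples in a single fit. *Acvrl1*, which encodes the remaining BMP type I receptor, was not tested.

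With H3.1K27M among *ACVR1* WT samples, 2 of the 9 rose (*Acvr1* and *Tgfbr2*) and 2 fell (*Bmpr1b* and *Tgfbr1*), where 23.0% of all genes passed, 12.6% higher and 10.4% lower. DESeq2 called 6 of the 9, with *Acvr1b* and *Acvr2b* in addition, against 29.4% of all genes. The groups did not overlap for 7 of the 9, against 44.6% of all genes. Without *ACVR1* WT replicate 1 all 9 passed, where 52.6% of all genes did. With H3.1K27M among *ACVR1* R206H samples, 3 rose (*Acvr1*, *Bmpr1a* and *Tgfbr2*) and 4 fell (*Bmpr1b*, *Acvr1b*, *Tgfbr1* and *Acvr2b*), where 56.5% of all genes passed, 29.1% higher and 27.4% lower. The groups did not overlap for 8 of the 9, against 63.1% of all genes. The median log2 fold change of the 9 was -0.12 there and -0.24 among *ACVR1* WT samples, beside -0.00 and -0.02 over all genes tested. With *ACVR1* R206H the median was 0.10 on the H3.1K27M background, beside 0.00 over all genes, and -0.05 without it, beside -0.01.

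**Figure D3:**
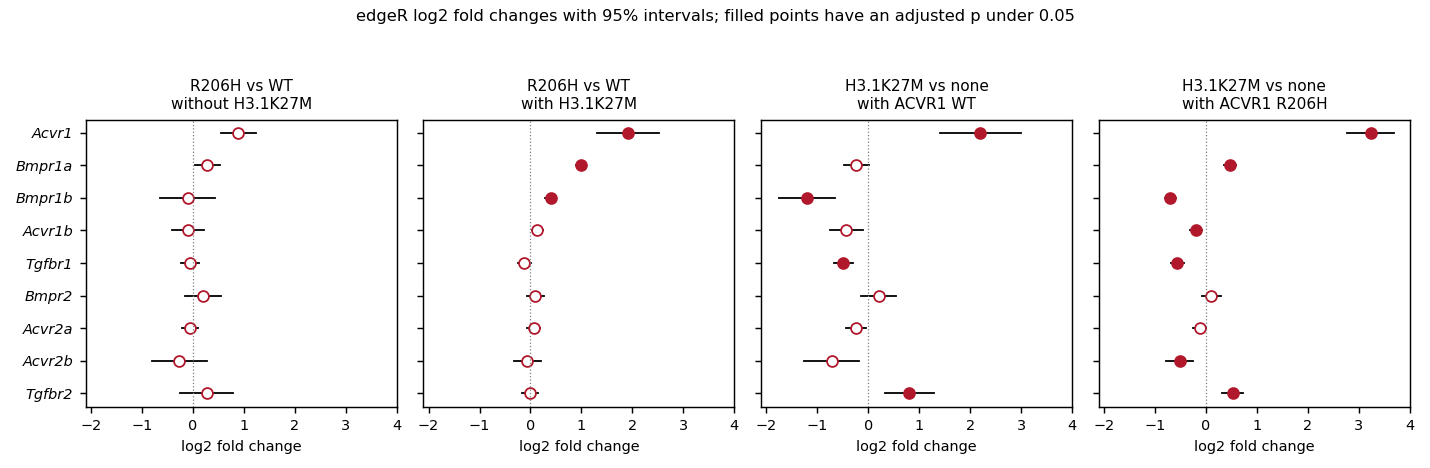
Log2 fold changes of the 9 tested receptor genes from edgeR in each of the 4 comparisons, with lines for 95% intervals and filled points for an adjusted p under 0.05. *Acvr1* lies to the right in all 4 panels, from 0.89 to 3.23, and *Bmpr1b* lies at -1.20 and -0.70 in the panels for H3.1K27M.

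For the interaction, 0 of the 9 passed in edgeR's test, where 0.0712% of all genes did. The unadjusted p was under 0.05 for *Acvr1* and *Bmpr1a*, and DESeq2 called 1, *Bmpr1a*, against 0.628% of all genes. Without *ACVR1* WT replicate 1, *Bmpr1a*, *Bmpr1b*, *Acvr1b* and *Tgfbr2* passed, with differences of 0.79, 0.73, 0.37 and -0.52 on the log2 scale, where 26.6% of all genes passed. All comparisons with a group in common share its samples.

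**Figure D4:**
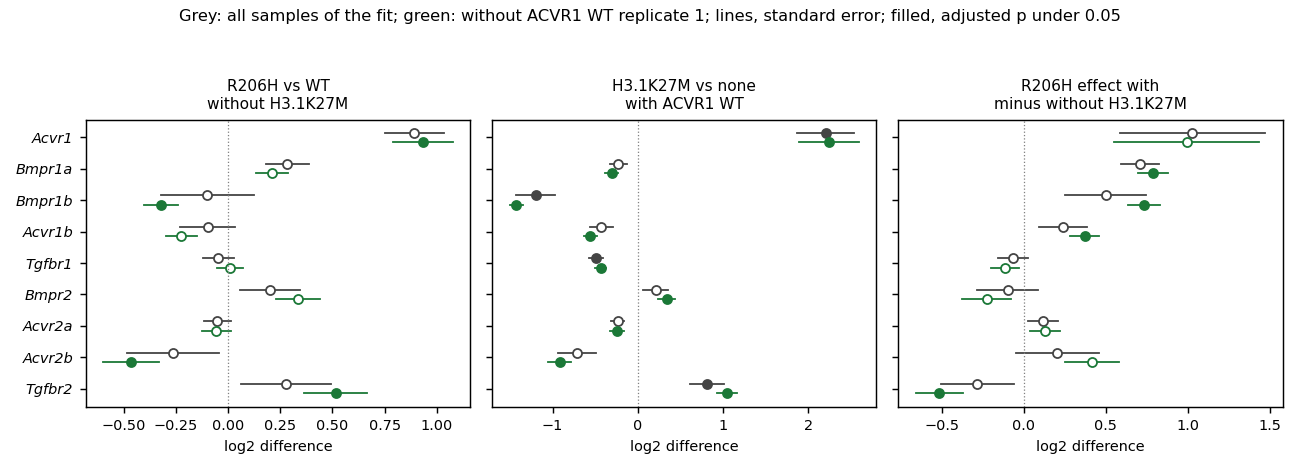
Log2 differences of the 9 tested receptor genes with standard errors, from the samples of each fit (grey) and without *ACVR1* WT replicate 1 (green), with filled points for an adjusted p under 0.05. For the interaction, 0 points are filled in grey and 4 in green, and *Tgfbr1* is the gene whose point crosses 0, from -0.05 to 0.01, in the panel for *ACVR1* R206H without H3.1K27M.

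The order of the levels per kb of exon differed between the groups, with changes of rank for *Acvr1*, *Bmpr1b* and others. With *ACVR1* WT, *Bmpr1a* led at 53.5 ± 6.20 CPM per kb, above *Bmpr1b*, whose samples ran from 13.2 to 25.3. From *Bmpr1b* down, *Acvr1b* (13.7), *Bmpr2* (12.2), *Acvr1*, *Tgfbr1* (9.47) and *Acvr2a* (8.70) each overlapped in range with the next. *Acvr2b* at 1.94 and *Tgfbr2* at 0.972 CPM per kb were separate from the genes above them, and *Acvrl1* was last at 0.0304. With *ACVR1* R206H, *Acvr1* at 19.5 ± 3.61 CPM per kb stood beside *Bmpr1b* at 18.7 ± 1.09, with overlapping ranges.

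With *ACVR1* WT and H3.1K27M, *Acvr1* at 48.5 ± 24.0 and *Bmpr1a* at 45.9 ± 1.68 CPM per kb overlapped in range. With both mutations *Acvr1* at 180 ± 57.7 lay above *Bmpr1a* at 89.1 ± 6.20 without overlap. *Bmpr1b* had rank 5, at 8.77 CPM per kb with *ACVR1* WT and H3.1K27M, and rank 4, at 11.3, with both mutations, against ranks 2 and 3 without H3.1K27M. *Bmpr2* had rank 3 in both groups with H3.1K27M, at 14.2 ± 1.66 and 14.8 ± 1.02 CPM per kb. *Tgfbr2* passed *Acvr2b* in the groups with H3.1K27M, at 1.72 against 1.19 and 1.67 against 1.11 CPM per kb, without overlap, whereas without H3.1K27M it lay below it.

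Of the remaining receptors of the family, *Acvr1c*, the type I receptor for nodal, had 2 to 8 counts in the samples without H3.1K27M, 11 to 14 with *ACVR1* WT and H3.1K27M, and 22, 13 and 31 with both mutations. It rose with H3.1K27M among *ACVR1* R206H samples (log2 fold change 1.55, standard error 0.41, adjusted p = 0.0068), at levels of up to 1.16 CPM. *Amhr2*, the type II receptor for anti-Muellerian hormone, was at or below 0.373 CPM and was not tested.

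Of 9 listed genes for co-receptors and a pseudoreceptor, 6 were tested, and 3 rose with *ACVR1* R206H on the H3.1K27M background, where 11.4% of all genes did. *Rgma*, a BMP co-receptor, rose 1.44-fold, from 168 ± 14.5 to 237 ± 7.39 CPM (log2 fold change 0.53, adjusted p = 2.55e-05). *Bambi*, a pseudoreceptor that lacks the kinase, rose 1.88-fold, from 4.92 ± 0.715 to 9.05 ± 1.12 CPM (log2 fold change 0.91, adjusted p = 0.000289), and *Neo1*, which binds RGM proteins, by 0.15 on the log2 scale (adjusted p = 0.035). With H3.1K27M among *ACVR1* WT samples, *Rgma* (log2 fold change -1.40) and *Neo1* (-0.54) fell, and *Rgmb* (0.74) and *Eng* (2.32), a co-receptor of endothelial cells, rose, where 23.0% of all genes passed. Among *ACVR1* R206H samples the same 4 genes passed in the same direction, at -0.76, -0.33, 0.77 and 1.68, and *Bambi* rose by 1.27, where 56.5% of all genes passed. *Tgfbr3*, the betaglycan co-receptor, was at 3.82 to 5.68 CPM and passed in none of the comparisons with all samples. Without *ACVR1* WT replicate 1, its log2 fold change with H3.1K27M among *ACVR1* WT samples was 0.42 (adjusted p = 0.0393). *Hjv*, *Tdgf1* and *Cfc1* were under the filter.

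Of 6 proteins that bind type I receptors or act in their turnover, *Smurf1*, a ubiquitin ligase for BMP receptors and SMADs, rose in 3 comparisons, where 11.4%, 12.6% and 29.1% of all genes rose. It rose with *ACVR1* R206H on the H3.1K27M background (log2 fold change 0.15, adjusted p = 0.0172), and with H3.1K27M among *ACVR1* WT samples (0.42, adjusted p = 0.00807) and *ACVR1* R206H samples (0.52, adjusted p = 1.28e-06). *Zfyve9*, the SMAD anchor SARA, fell with H3.1K27M among *ACVR1* R206H samples (log2 fold change -0.14, adjusted p = 0.0275). *Fkbp1a*, whose protein FKBP12 holds the GS box of type I receptors inactive, had group means of 194 to 205 CPM and passed in none with all samples. *Fkbp1b*, *Smurf2* and *Strap* also passed in none by edgeR with all samples. For H3.1K27M among *ACVR1* WT samples, DESeq2 called *Fkbp1b* and *Zfyve9*. Without *ACVR1* WT replicate 1, edgeR's log2 fold change there was 0.20 for *Fkbp1a* (adjusted p = 0.0187) and -1.70 for *Fkbp1b* (adjusted p = 0.000671). The interaction of *Fkbp1b* without that sample was 1.32 (adjusted p = 0.0106).

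Of the 8 SMAD genes, 3 rose with *ACVR1* R206H on the H3.1K27M background, namely *Smad9* (log2 fold change 1.70), *Smad6* (2.02) and *Smad7* (1.11), of which *Smad6* and *Smad7* encode inhibitory SMADs. Over all genes 11.4% rose and 8.95% fell in this comparison. With H3.1K27M among *ACVR1* WT samples, *Smad1* (log2 fold change -0.51) and *Smad4* (-0.32) fell and *Smad3* (0.65) and *Smad2* (0.28) rose, where 12.6% of all genes rose and 10.4% fell. Among *ACVR1* R206H samples all 8 passed with H3.1K27M, 5 higher and 3 lower, where 56.5% of all genes passed, with *Smad9* (1.26), *Smad3* (0.44), *Smad6* (1.96) and *Smad4* (-0.36) at the smallest adjusted p. The list of 11 BMP target genes shares *Smad6*, *Smad7*, *Smad9* and *Bambi* with the lists above, so that these are not separate counts. Of the 11, 10 rose with *ACVR1* R206H on the H3.1K27M background, against 11.4% of all genes, and 0 fell, with a median log2 fold change of 1.84 beside 0.00 over all genes. With H3.1K27M 8 rose and 1 fell among *ACVR1* R206H samples, *Atoh8* (2.36) and *Id1* (1.58) among them, where 29.1% and 27.4% of all genes did. Among *ACVR1* WT samples *Id3* (-1.14) and *Id2* (-0.64) fell and 0 rose, where 10.4% and 12.6% of all genes did, and DESeq2 called 4. Without *ACVR1* WT replicate 1, 1 of the 11 rose, *Smad6* (1.23), and 4 fell, where 52.6% of all genes passed. Of 6 activin and TGF-beta target genes tested for the *ACVR1* R206H effect on the H3.1K27M background, where 11.4% of all genes rose and 8.95% fell, *Ccn2* (0.94) and *Ltbp2* (1.61) rose and *Pmepa1* (-0.72) fell, with a median of 0.03. With H3.1K27M *Ccn2* rose by 3.06 among *ACVR1* WT samples, and among *ACVR1* R206H samples *Ccn2* (2.88) and *Ltbp2* (3.33) rose and *Pmepa1* (-0.29) fell.

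Of the 21 ligand genes, 9 were tested with *ACVR1* R206H against *ACVR1* WT on the H3.1K27M background, where 4 rose and 2 fell, against 11.4% and 8.95% of all genes. *Tgfb2* rose (log2 fold change 0.42), as did *Inhba* (1.27), which encodes the activin A subunit, while *Bmp7* (-0.60) and *Inhbb* (-0.33) fell. With H3.1K27M *Inhbb*, the activin B subunit, fell by 0.73 among *ACVR1* WT samples and by 1.12 among *ACVR1* R206H samples on the log2 scale. Of 11 ligands tested, 0 rose and 2 fell in the former comparison (12.6% and 10.4% of all genes), the other being *Gdf6* (-2.60). Without *ACVR1* WT replicate 1, 2 of the 11 rose and 6 fell, where 52.6% of all genes passed. Among *ACVR1* R206H samples 5 rose and 4 fell (29.1% and 27.4% of all genes), with *Gdf11* (0.34), *Tgfb3* (0.83) and *Tgfb2* (-0.22) next to *Inhbb* by adjusted p. Of the 15 antagonist genes, 9 were tested for the effect of *ACVR1* R206H on the H3.1K27M background, where 5 rose and 0 fell, against 11.4% and 8.95% of all genes, with *Nog* (2.96), *Fst* (1.06) and *Nbl1* (0.68) among them. Noggin and NBL1 bind BMPs, and follistatin binds activins. With H3.1K27M *Bmper* (1.78) and *Fst* (1.41) rose and *Twsg1* (-0.55) fell of 8 antagonists tested among *ACVR1* WT samples (12.6% and 10.4% of all genes). Without *ACVR1* WT replicate 1, 4 of 9 antagonists rose and 2 fell, where 52.6% of all genes passed. Among *ACVR1* R206H samples 5 of 9 rose and 1 fell (29.1% and 27.4% of all genes). There, *Bmper* (1.71), *Nbl1* (1.05), *Fst* (1.15) and *Twsg1* (-0.48) had the smallest adjusted p. Each pathway gene named above as changed with H3.1K27M among *ACVR1* WT samples also passed in the same direction without *ACVR1* WT replicate 1. Between *ACVR1* R206H and *ACVR1* WT without H3.1K27M, 0 of the 52 tested genes of these pathway lists passed in edgeR's test, where 0.0% of all genes passed. There, 9 had an unadjusted p under 0.05, against 3.54% of all genes, and DESeq2 called 3, *Fst*, *Id1* and *Atoh8*, against 0.173% of all genes. Leaving out *ACVR1* WT replicate 1, 21 of the 52 passed in edgeR's test, where 23.1% of all genes did.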

How the data were processed

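The deposited files hold raw counts per Ensembl gene and sample, neither normalized nor pooled, which the authors made from paired-end reads with RNA-STAR on mm10 (STAR 2.6.0b-1 in the submitters' processing notes) and HTSeq-count in union mode, ignoring strand, at a minimum quality of 10 and without nonunique or ambiguous reads. Reads carry no molecular identifiers, so that limits from counts cover counting error only. Symbols, positions and exon lengths came from GENCODE M21 (GRCm38). Each comparison was fitted on its own 6 samples, and the interaction on all 12, with edgeR 4.0.16 (quasi-likelihood F test, TMM, R 4.3.3), keeping genes whose normalized counts averaged 10 or more, and p values were adjusted over all tested genes (Benjamini-Hochberg, threshold 0.05). Alternatives used DESeq2 1.42.0, the authors' tool, limma 3.58.1, and other filters, scalings and samples. The fits were tested on simulated data. The rule for named genes took the 10 receptors and, of each of 8 pathway lists, up to 4 passing genes a comparison (smallest adjusted p first), of which the text gives a selection, and 7 marker lists as counts. The members and lists were chosen with earlier results of these data known.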

Additional observations from a re-analysis of the deposited data

Results flagged for a closer look

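Among the 11 BMP target genes listed beside the receptors, 2 had an R206H effect that depended on H3.1K27M past the threshold of edgeR's interaction test, where 0.0712% of all genes passed, and DESeq2 called 4 of the 11, where 0.628% did. The log2 difference, with minus without H3.1K27M, was 1.753 for *Id2* (SE 0.18) and 2.313 for *Id3* (SE 0.23), each with an adjusted p of 0.0059. Without *ACVR1* WT replicate 1 the differences were 1.90 and 2.48 (adjusted p = 5.19e-06 for both), and 9 of the 11 passed, where 26.6% of all genes did. Of the receptors *Bmpr1a* came nearest, at 0.71 with an adjusted p of 0.0746.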

How the results depend on the processing

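Of 630 comparisons of a receptor's log2 fold change with its value under an alternative, 574 kept direction and side of the threshold, 39 passed where the reported value did not, 13 no longer passed and 4 changed sign. The 4 were values near 0 with a sample left out, in ranges of -0.32 to 0.10 for *Bmpr1b*, -0.22 to 0.027 for *Acvr1b* and -0.094 to 0.0096 for *Tgfbr1* (*ACVR1* R206H effect without H3.1K27M) and of -0.23 to 0.021 for *Bmpr2* (interaction). Receptors called for the *ACVR1* R206H effect without H3.1K27M numbered 1 with DESeq2, 4 with limma voom and sample weights, and 0 to 4 leaving out a sample, and all genes called 26, 3683 and 0 to 3485, or 11 with 12 samples in a single fit. With H3.1K27M all genes called were 440 in the fit of 12 samples and 1915 to 2966 leaving out a sample, while 3 receptors passed whichever sample was left out. For the effect of H3.1K27M with *ACVR1* WT, receptors called were 9 with voom, 8 with 12 samples and 1 to 9 leaving out a sample, and all genes 9234, 6335 and 1037 to 8115. For the interaction they were 1 with DESeq2, 1 without a filter, 5 with voom and 0 to 4 leaving out a sample, and all genes 97, 18, 4550 and 3 to 4112. With H3.1K27M and *ACVR1* R206H the receptors called stayed at 7 or 8 leaving out a sample. The cause was not tested.

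Correlations between same-numbered samples' deviations from their group means were -0.115 to 0.325. With 3 samples a group, these values cannot settle whether the replicate numbers pair the samples. The replicate block moved all genes called from 3533 to 2023 for H3.1K27M with *ACVR1* WT and from 11 to 2 for the interaction, and took *Tgfbr2* to an adjusted p of 0.0586 in the former, with no other receptor call changed. Depth limits *Acvrl1*, with at most 14 counts in a sample.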

Other observations

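For each receptor past the threshold in at least 1 pairwise comparison, the genes with the most similar pattern over the 12 samples were found by the root mean square difference of log2 CPM after centring each gene on its mean, among 15445 genes. *Cxxc5* was nearest to *Bmpr1a* (0.09), with group means of 88.8, 102, 66.3 and 140 CPM in the order *ACVR1* WT, *ACVR1* R206H, then each with H3.1K27M, followed by *Rps6ka5* (0.10) and *Lrrc75a* (0.13). *Mctp1* (0.39), *Cxcl5* (0.46) and *Diras2* (0.47) were nearest to *Acvr1*, whose own deviation was 1.56, and *Mctp1* had 2.47, 6.94, 16.3 and 44.7 CPM in the 4 groups. The BMP co-receptor *Rgma* (0.12) had rank 3 for *Bmpr1b* after *Efhd2* (0.10) and *Nr2f1* (0.11), with 439, 410, 168 and 237 CPM. *Nedd4*, a ubiquitin ligase, was nearest to *Tgfbr1* (0.05), before *Nvl* and *Armcx4*. *Zdhhc18*, *Zfp867* and *Snap29* were nearest to *Acvr1b*, *Fads1*, *Tprkb* and *Mkrn1* to *Acvr2b*, and *Ogdh*, *Tfrc* and *Tigar* to *Tgfbr2*. The points share 12 libraries and 4 group means, and no p is given.

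Of the other marker lists, oligodendrocyte lineage genes had 6 of 8 lower with *ACVR1* R206H on the H3.1K27M background and 0 higher, neural progenitor genes 5 of 8 higher and 1 lower, astrocyte genes 3 of 6 higher and 1 lower, and neuronal genes 3 of 7 higher and 1 lower, where 11.4% of all genes were higher and 8.95% lower. Of the endothelial markers 5 were tested there and *Kdr* rose, and of the microglial markers 1 was tested and rose, *P2ry12*. Of the pericyte and fibroblast markers 6 were tested, and *Rgs5*, *Col1a2* and *Col1a1* rose by edgeR, whereas DESeq2 called 1.

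With H3.1K27M among *ACVR1* WT samples, where 12.6% of all genes were higher and 10.4% lower, 3 of 8 neural progenitor genes were lower (*Pax6*, *Sox2* and *Sox9*) and 0 higher. Of the astrocyte genes 1 of 6 was lower (*Gfap*), of the oligodendrocyte lineage genes 1 of 8 was higher and 1 lower, of the neuronal genes 1 of 7 was higher and 2 lower, of the endothelial markers 0 of 3 passed by edgeR (1 at an unadjusted p under 0.05 and 1 by DESeq2), and of the pericyte and fibroblast markers 3 of 5 were higher. Among *ACVR1* R206H samples, where 29.1% of all genes were higher and 27.4% lower, H3.1K27M went with 1 of 8 neural progenitor genes higher and 4 lower, 2 of 6 astrocyte genes higher and 3 lower, 5 of 8 oligodendrocyte lineage genes higher and 2 lower, 4 of 7 neuronal genes higher and 2 lower, 1 of 3 endothelial markers higher and 1 lower, and 4 of 4 pericyte and fibroblast markers higher.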
